A study of Mus musculus with 16 samples.

Results

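The glucocorticoid receptor and 8 of its best known target genes were followed in bone marrow-derived brain macrophages and in the microglia beside them, with and without an injection of bacterial lipopolysaccharide (LPS). The 9 genes were picked by symbol from the 24411 genes of the count table and were Nr3c1, Fkbp5, Tsc22d3, Sgk1, Klf9, Ddit4, Zbtb16, Dusp1 and Cebpd. All 9 had reads in every one of the 4 groups. The mice were C57BL/6J, wild type, irradiated with 950 cGy and transplanted with wild type CD45.1 bone marrow, so that graft and host cells could be told apart by their form of CD45. From each of 8 mice, cells without Ly6C/G and with CD11b were sorted into a pair of fractions, engrafted cells (low CD45.1) and host microglia (low CD45.2), which gave 16 libraries in 4 groups of 4. Mice 1 to 4 received 2.5 mg/kg LPS 12 h before they were killed. Mice 5 to 8 were unchallenged controls, and the sources used here name no injection for them. LPS and the injection itself can thus not be told apart. The labels allow 3.5 or 9 months between transfer and sorting without giving the time of each library, and the study's text speaks of the later one. Every mouse had been irradiated, anesthetized and perfused, and every brain was dissociated with collagenase. The marrow was given after the irradiation, so host microglia had themselves been irradiated and engrafted cells had not. Population and direct irradiation can thus not be told apart in these libraries. The time of day at which the mice were killed is not given in the sources used here, and circulating corticosterone was not analysed here.

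Glucocorticoids (corticosterone in mice) are released by the adrenal cortex under the control of the pituitary, follow a daily rhythm and rise with stress and with inflammation. They cross the membrane and bind the glucocorticoid receptor, which waits in the cytosol with Hsp90 and its co-chaperones, then enters the nucleus and binds DNA at a palindrome of short half-sites. In macrophages the receptor is known for switching on a set of feedback and anti-inflammatory genes and for damping the transcription of cytokines. Both populations sorted from a mouse had shared the blood of that mouse, so that a circulating hormone could reach both. Several of the target genes also respond to other signals, Dusp1 and Cebpd to inflammatory ones among them.

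Depth ran from 395283 to 1203597 reads on genes, and the engrafted library of LPS mouse 4 was the shallowest. Levels are given as CPM, counts scaled to the effective library size, and 3 reads, the limit that a count of 0 allows, stood for 2.34 to 8.76 CPM. The libraries hold 3′ ends only, and no level is compared between genes. Of the list of 8 inflammatory genes used to check the LPS label, 8 were called higher after LPS in host microglia and 7 in engrafted cells (edgeR). Over all genes tested, 7.66% and 10.2% were called higher. The list was chosen with earlier results of these data known, so these counts are a description. The summed microglial markers (9 of 9 measured) spanned 14420 to 16830 CPM in host controls, 6240 to 7229 in host LPS, 6482 to 8034 in engrafted controls and 2740 to 3893 in engrafted LPS libraries. Summed monocyte markers reached 1112 to 2185 CPM in engrafted LPS libraries, against 100.1 to 155.9 in engrafted controls and at most 22.4 in host libraries. Neutrophil markers reached 1180 CPM in engrafted controls and 456.5 in engrafted LPS libraries but at most 15.6 in host libraries. Astrocyte markers were at 144.6 to 271.4 CPM in host and 11 to 29.4 in engrafted libraries. These sums do not rest on all markers of a list. Gfap, an astrocyte marker, had no read in host LPS libraries, and Mpo and Cxcr2, neutrophil markers, had none in engrafted controls. Whether the sums come from other cells or from the sorted cells themselves was not tested, nor was their part in the results below. In such bulk samples, fewer cells of a type and less RNA per cell cannot be told apart.

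A few stretches of genomic DNA are shown because they hold the full palindrome that the receptor binds, AGAACA followed by any 3 bases and its reverse complement. It was searched on mm9, the build of the count table, in each gene model and the 10000 bases upstream of it. This window was chosen after a narrower one, 5000 bases either side of the start, had been seen. Only Fkbp5 and Sgk1 held the palindrome. The stretches are written 5′ to 3′ on the strand of the gene, the capitals mark the palindrome, and all lie in introns of the annotation (GENCODE vM1).
Fkbp5 chr17:28557242-28557304: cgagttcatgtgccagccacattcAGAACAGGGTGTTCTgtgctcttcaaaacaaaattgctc
Fkbp5 chr17:28579340-28579402: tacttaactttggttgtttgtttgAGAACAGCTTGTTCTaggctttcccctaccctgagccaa
Sgk1 chr10:21713483-21713545: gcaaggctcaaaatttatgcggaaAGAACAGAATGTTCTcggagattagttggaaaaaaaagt
The palindromes of Fkbp5 lay 65814 and 43716 bases downstream of its start, and that of Sgk1 lay 965 bases upstream of the start of the counted model, within an intron of a longer annotated transcript. Of 24341 gene models on the assembled chromosomes, 301 (1.24%) held the palindrome in such a window. The window of Fkbp5 spans 97397 bases, and of the 2621 windows at least as long, 177 (6.75%) held the palindrome and 7 (0.267%) held it 2 times or more. Within 5000 bases of the start, 31 models (0.127%) held it, Sgk1 among them.

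A looser form of the element was shared by more of the genes. It reads G, any base, ACA, any 3 bases, TGT, any base and C, is its own reverse complement in form, and overlaps the palindrome wherever that occurs. Within 5000 bases of the start it was found at Fkbp5, Sgk1, Dusp1 and Cebpd, which is 4 of the 9 genes, and at 15.9% of all models. The wider window of the palindrome search gave another set. There Zbtb16 held 7 matches, Fkbp5 held 6, Sgk1, Klf9 and Dusp1 held 1 each, and Cebpd held 0. These windows differ in length, with 191649 bases for Zbtb16 and 35686 for Klf9, and the share of all models was not computed for them. The matches of Dusp1 and Cebpd are shown for comparison with the palindromes above, with the 13 bases of the looser form in capitals. Both lie outside the annotated gene.
Dusp1 chr17:26646408-26646468: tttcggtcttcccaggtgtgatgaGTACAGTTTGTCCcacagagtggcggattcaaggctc
Cebpd chr16:15889903-15889963: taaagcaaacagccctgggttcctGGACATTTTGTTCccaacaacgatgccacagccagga
The match of Dusp1 lay 1027 bases upstream of its start and that of Cebpd 2548 bases downstream of its start. The single half-site was of no use at this range, since 99.8% of models held it. In the 250 bases before the start of the counted model, no member held any of the 3 forms, and 14.2% of models held the half-site there. Genes with several starts have other promoters, and 1 RefSeq promoter of Sgk1 (300 bases, GRCm38 chr10:21993640-21993939) held the palindrome. Of all 32851 such promoters, 3 (0.00913%) held it. A match of letters is a description of the sequence, and a missing match says only that these letters are not in the window.

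After LPS, 7 of the 8 targets rose in host microglia and 8 of 8 in engrafted cells, by very different amounts. In host microglia 7 of the 9 genes, all but Nr3c1 and Sgk1, rose and none fell at an adjusted p below 0.05 (edgeR quasi-likelihood test, Benjamini-Hochberg), and 5 of these were called, that is, also changed more than 2-fold. Over all 8238 genes tested, 7.66% were called higher and 10.4% lower, and at this adjusted p 19.2% rose and 20.5% fell. In engrafted cells 8 of the 9 genes rose and 1 fell, and 5 were called higher, where 10.2% of the 7609 genes tested were called higher, 11.3% were called lower, 19.4% rose and 19.3% fell. The median log2 fold change of the 9 genes was 1.14 in host microglia and 1.00 in engrafted cells, beside 0.01 and -0.01 over all genes tested. The libraries of LPS and control mice did not overlap for 7 of the 9 genes in host microglia and for 9 of 9 in engrafted cells, against 35.7% and 35.1% of all genes tested. Klf9 and Zbtb16 were too low for the test between unchallenged populations and entered the LPS comparisons through their LPS libraries. The counts above include both genes, so these counts and the p-values of Klf9 and Zbtb16 for LPS against control are a description. The plot of levels by library shows the 9 genes side by side.

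**Figure D1:**
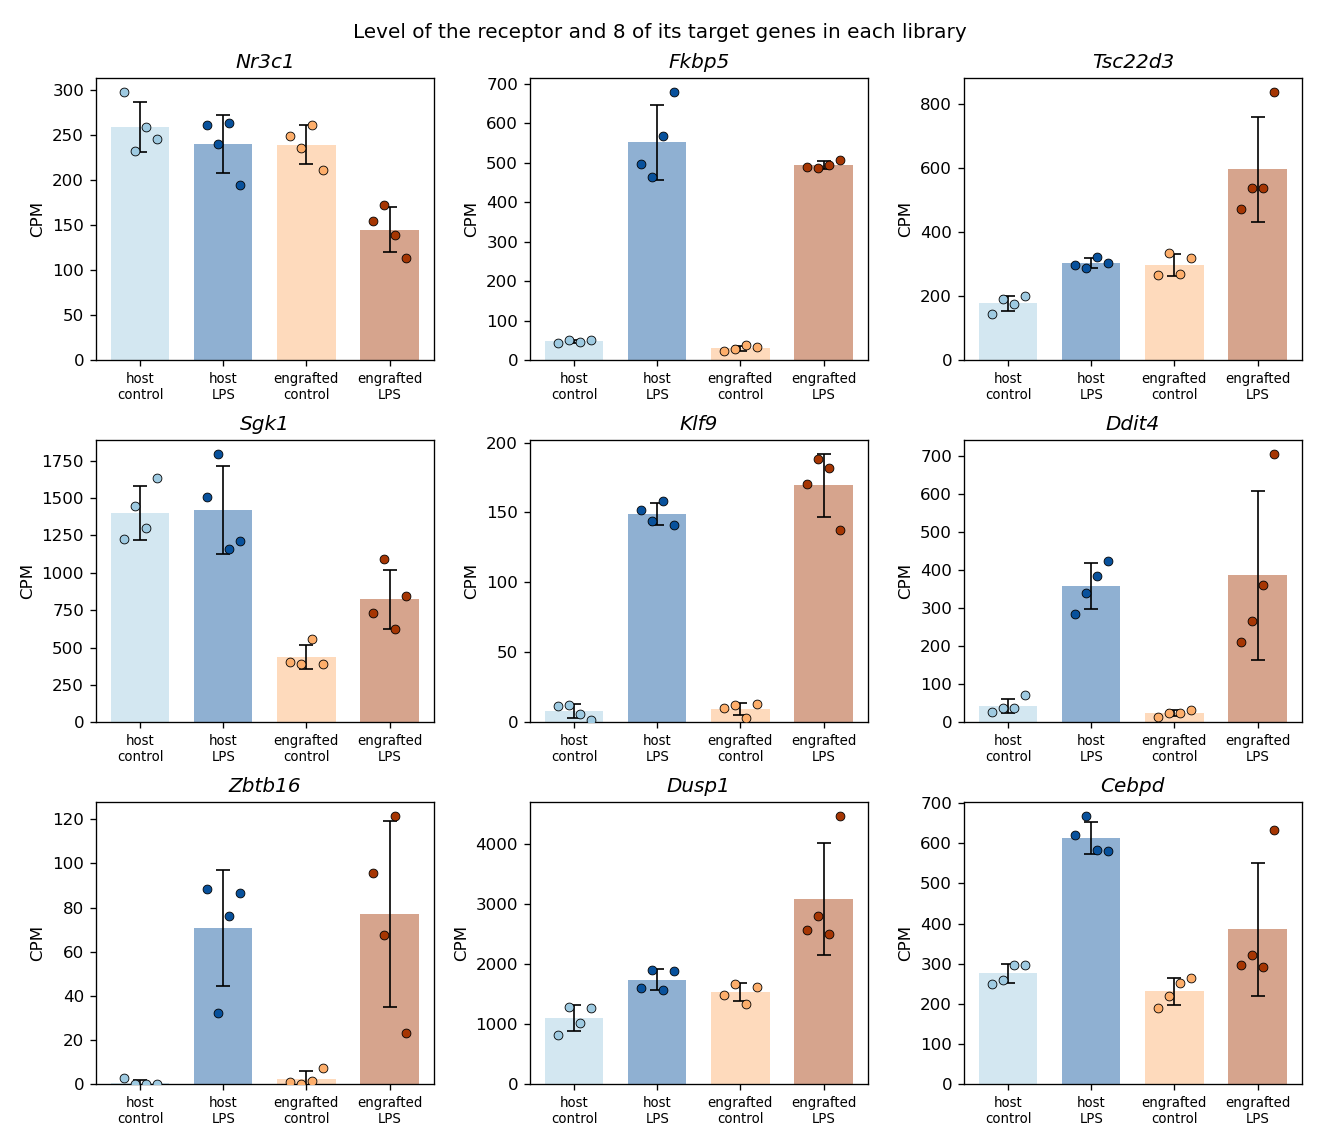
Level of each of the 9 genes in CPM (vertical axes, linear, each from 0) in the 4 groups; points are the 4 libraries of a group in the order of mouse number, bars are means and error bars are 1 SD. Fkbp5, Klf9, Ddit4 and Zbtb16 are near the bottom in both control groups and high in both LPS groups, Nr3c1 is lowest in engrafted LPS libraries, and Sgk1 is lowest in engrafted controls.

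Nr3c1 (NM_008173, chr18:39570199-39646899 in mm9, minus strand) encodes the receptor itself. In host microglia it measured 298, 233, 259 and 245 CPM in control mice 5 to 8 and 262, 240.4, 263 and 194 CPM in LPS mice 1 to 4. These libraries overlapped, and the change after LPS was -0.11 on the log2 scale (SE 0.15, adjusted p = 0.575, edgeR). In engrafted cells it measured 248, 236, 262 and 211 CPM without and 155, 172, 139 and 114 CPM with LPS. All 4 engrafted LPS libraries lay below all other 12 libraries of the series. The receptor fell by 0.71 on the log2 scale in engrafted cells (SE 0.17, adjusted p = 0.00296, edgeR), from 239 ± 21.4 to 145 ± 24.8 CPM (SD, n = 4). The difference between this change and that in host microglia was -0.60 (SE 0.23) and did not pass the test (adjusted p = 0.133, edgeR interaction). The response of the receptor's own message was thus not shown to differ between the populations.

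Fkbp5 (NM_010220, chr17:28535698-28623094, minus strand) encodes a co-chaperone that binds Hsp90 and lowers the affinity of the receptor for its hormone, which closes a short feedback loop. Its control levels were 44.3, 52.0, 46.7 and 51.5 CPM in host microglia and 23.3, 29.4, 38.6 and 33.4 CPM in engrafted cells. After LPS they were 496, 464, 568 and 680 CPM in host microglia and 491, 487, 494 and 508 CPM in engrafted cells. The lowest LPS library was thus far above the highest control library, and the 4 engrafted LPS libraries were close to each other (495 ± 9.25 CPM, SD, n = 4). Fkbp5 rose 11.2-fold in host microglia (log2 3.48, SE 0.17, adjusted p = 1.14e-12) and 16.01-fold in engrafted cells (log2 4.00, SE 0.21, adjusted p = 2.85e-11), both by edgeR. Ordered by p, it was number 7 of the 8238 genes tested in host microglia and number 10 of the 7609 tested in engrafted cells. The difference between the changes was 0.51 (SE 0.26, adjusted p = 0.284, edgeR interaction). Of the 3 palindromes printed above, 2 lie in this gene.

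Tsc22d3 (NR_122039, chrX:137074068-137077207, minus strand) encodes GILZ, a leucine zipper protein that restrains NF-kB and AP-1 and is used as a marker of glucocorticoid action in immune cells. The host control libraries measured 145, 192, 176 and 199.9 CPM and the host LPS libraries 299, 287, 324 and 305 CPM. The engrafted controls measured 267, 336, 269.9 and 319 CPM and the engrafted LPS libraries 473, 537, 539 and 838 CPM. LPS libraries were above control libraries in each population, and engrafted controls reached the level of host microglia after LPS. The gene rose 1.69-fold in host microglia (log2 0.75, SE 0.14, adjusted p = 0.000226) and 1.99-fold in engrafted cells (log2 0.99, SE 0.20, adjusted p = 0.000538), both by edgeR and both short of the 2-fold limit. The value in engrafted cells is so close to this limit that RLE size factors, DESeq2 and the absence of a filter each moved it across (log2 1.01, 1.00 and 1.03). The counted model is the short one at the 3′ end of the locus, so transcripts that start further upstream are not told apart.

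Dusp1 (NM_013642, chr17:26642536-26645417, minus strand) encodes a phosphatase that switches off p38 and JNK, the kinases downstream of Toll-like receptors. It measured 828.9, 1296, 1031 and 1274 CPM in host controls and 1603, 1907, 1578 and 1891 CPM in host LPS libraries. In engrafted cells it measured 1493, 1680.0, 1346 and 1624 CPM without and 2575, 2809, 2502 and 4474 CPM with LPS. No LPS library overlapped the controls of its population, and the engrafted library of mouse 4 stood well above the other 3. Dusp1 rose 1.56-fold in host microglia (log2 0.64, SE 0.15, adjusted p = 0.00208) and 2.00-fold in engrafted cells (log2 1.00, SE 0.20, adjusted p = 0.000438), by edgeR. The latter is so close to the limit of 2-fold that several alternatives moved it below. Without the engrafted library of LPS mouse 4 it was 0.79 (adjusted p = 4.02e-05), and without the engrafted control of mouse 5 or of mouse 7 it was 0.98 and 0.95.

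Sgk1 (NM_011361, chr10:21714472-21719708, plus strand) encodes a serine/threonine kinase that acts on ion channels and on Foxo factors and answers to both glucocorticoids and mineralocorticoids. In host microglia it measured 1223, 1446, 1297 and 1633 CPM without and 1509, 1795, 1156 and 1215 CPM with LPS. These libraries overlapped almost completely, and the change was 0.0094 on the log2 scale (SE 0.16, adjusted p = 0.969, edgeR). In engrafted cells the controls measured 401, 389.6, 555 and 391 CPM and the LPS libraries 732, 1089, 626 and 843 CPM. Each engrafted LPS library was above each engrafted control and below each host library. The gene rose 1.89-fold in engrafted cells (log2 0.91, SE 0.20, adjusted p = 0.00121, edgeR). It was the only one of the 9 genes whose difference in response between the populations passed the adjusted p. This difference was 0.90 on the log2 scale (SE 0.26, adjusted p = 0.0377, edgeR interaction). Of the 8847 genes tested, 2.97% had an interaction term above 0 at this adjusted p and 2.9% had one below 0. A gene that missed the adjusted p was not thereby shown to respond alike in both populations. No member was called in the interaction, beside 2.45% of genes called in this direction and 2.5% in the other. With 1 library left out, the difference kept its direction in 16 of 16 fits and passed the test in 6 of them, and over all alternatives its adjusted p ran from 0.00858 to 0.0889. At an unadjusted p below 0.05, 3 of the 9 genes differed in response, and DESeq2 found 1 past its adjusted p and none that was called.

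Klf9, Zbtb16 and Cebpd encode transcription factors. Klf9 (NM_010638, chr19:23215716-23241401, plus strand) is a Krüppel-like factor that follows corticosterone in many tissues. It measured 11.8, 12.5, 6.23 and 2.02 CPM in host controls and 152, 144, 158 and 141 CPM in host LPS libraries. In engrafted cells it measured 10.1, 12.1, 3.35 and 12.97 CPM without and 171, 188, 182 and 137 CPM with LPS. The 8 LPS libraries of both populations fell within a narrow band, far above the 8 controls. Klf9 rose 18.6-fold in host microglia (log2 4.22, SE 0.27, adjusted p = 8.6e-11) and 17.4-fold in engrafted cells (log2 4.12, SE 0.26, adjusted p = 4.66e-10), by edgeR. With 31 and 26 control reads in all, the ratios of the pooled levels had 95% exact counting intervals of 13.3 to 28.5 and of 12.2 to 28.0.

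Zbtb16 (NM_001033324, chr9:48462402-48644050, minus strand) encodes PLZF, a zinc finger repressor that is hardly expressed in most resting cells and strongly induced by glucocorticoids. Host controls held 2, 0, 0 and 0 reads, whereas host LPS libraries held 78, 33, 64 and 62 reads (88.3, 32.3, 76.2 and 86.7 CPM). Engrafted controls held 1, 0, 1 and 4 reads and engrafted LPS libraries 87, 56, 95 and 8 reads (95.7, 67.4, 122 and 23.4 CPM). The gene was at or near the limit of detection in every control and was read in every LPS library. The ratio of pooled levels was 137 in host microglia (95% exact counting interval 37.4 to 1135) and 38.7 in engrafted cells (17.5 to 106). The fitted changes, 6.77 (SE 0.57, adjusted p = 5.0e-09) and 5.07 (SE 0.56, adjusted p = 6.89e-07) on the log2 scale by edgeR, depend on how so few control reads are treated. With 1 library left out, the fitted change in host microglia ran from 6.30 to 9.08, the latter without the host control of mouse 5.

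Cebpd (NM_007679, chr16:15887379-15889638, plus strand) encodes C/EBP delta, a factor of the acute phase response that cooperates with the receptor and also answers to cytokines and LPS. Host controls measured 251, 261, 296 and 298 CPM and host LPS libraries 620.4, 668, 584 and 580.4 CPM. Engrafted controls measured 189.6, 219.9, 251 and 265 CPM, and engrafted LPS libraries 297, 323, 292 and 633 CPM. In host microglia the groups were far apart, whereas in engrafted cells 3 of the 4 LPS libraries were only just above the controls and that of mouse 4 reached the host level. Cebpd rose 2.20-fold in host microglia (log2 1.14, SE 0.14, adjusted p = 1.0e-06) and 1.65-fold in engrafted cells (log2 0.72, SE 0.23, adjusted p = 0.0202), by edgeR. The latter missed the test (adjusted p = 0.0775 and 0.0572) without the engrafted control of mouse 5 or of mouse 6. Without the engrafted library of LPS mouse 4, the rise in engrafted cells was 0.41 (adjusted p = 0.0405), and the difference from the host response went from -0.43 (adjusted p = 0.436) to -0.75 (adjusted p = 0.0188, edgeR interaction).

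Ddit4 (NM_029083, chr10:59412423-59414518, minus strand) encodes REDD1, an inhibitor of mTORC1 that is raised by glucocorticoids, low oxygen and DNA damage. It measured 28.0, 37.5, 36.6 and 71.7 CPM in host controls and 285, 340.0, 386 and 425 CPM in host LPS libraries. In engrafted cells it measured 14.2, 26.0, 23.5 and 33.4 CPM without and 211, 267, 362 and 706 CPM with LPS. All LPS libraries lay above all controls, and the 4 LPS mice stood in the same order in both populations, mouse 1 lowest and mouse 4 highest. Ddit4 rose 8.07-fold in host microglia (log2 3.01, SE 0.22, adjusted p = 4.67e-10) and 16.1-fold in engrafted cells (log2 4.01, SE 0.36, adjusted p = 3.18e-08), by edgeR. The difference between these was 0.98 (SE 0.46, adjusted p = 0.239, edgeR interaction). It was 0.56 (adjusted p = 0.437) without the engrafted library of mouse 4, and 1.01 (adjusted p = 0.0412) without a filter for low counts.

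**Figure D2:**
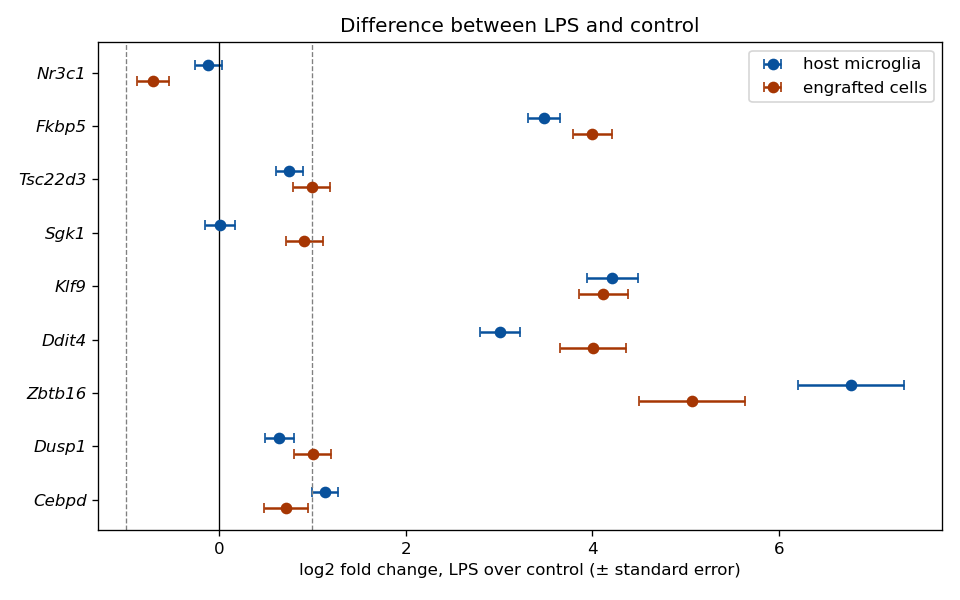
Log2 fold change of each gene between LPS and control libraries (horizontal axis, edgeR, error bars are 1 standard error) in host microglia (blue) and in engrafted cells (brown); dashed lines mark 2-fold. Zbtb16, Klf9, Ddit4 and Fkbp5 lie at 3.01 or more in both populations, whereas Sgk1 is at 0.0094 in host microglia and 0.91 in engrafted cells, and Nr3c1 is at -0.11 and -0.71.

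The engrafted library of LPS mouse 4, which held the highest levels of Fkbp5, Tsc22d3, Dusp1, Cebpd and Ddit4 in its group and the lowest of Nr3c1, Klf9 and Zbtb16, also differed from its group in other ways. It had 395283 reads, the fewest of all. Its summed red blood cell markers were at 6879 CPM against 2.56 to 79.5 CPM in the other 3 engrafted LPS libraries, its summed markers of engrafted macrophages at 95500 against 45180 to 50960 CPM, and its summed monocyte markers at 1112 against 1561 to 2185 CPM. Their part in the levels of the 9 genes was not tested. Without this library, 4 of the 9 genes were called after LPS in engrafted cells, namely Fkbp5, Klf9, Ddit4 and Zbtb16.

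Engrafted cells and host microglia were next compared without challenge, since the study describes a distinct transcriptome of graft-derived macrophages in the brain. The study's text says that such differences could stem from radiation damage to the host cells. It adds that engrafted cells also differed from microglia of the same age that were not irradiated. No such microglia are among the 16 libraries, and the part of irradiation in the differences below was not tested. Of the 9 genes, 7 could be tested, of which 1 was called, lower in engrafted cells, where 4.73% of the 8042 genes tested were called lower and 6.25% higher. At the adjusted p alone, 2 were higher and 3 lower in engrafted cells, beside 13.6% and 13.7% of all genes tested. The gene called was Sgk1, at 434 ± 80.6 CPM in engrafted and 1400.0 ± 181 CPM in host controls (SD, n = 4), 3.20-fold lower (log2 -1.68, SE 0.13, adjusted p = 1.78e-10, edgeR). Tsc22d3 and Dusp1 were higher in engrafted cells by less than 2-fold (log2 0.75, adjusted p = 0.000196, and 0.48, adjusted p = 0.00546, edgeR). Fkbp5 and Ddit4 were lower by less than 2-fold (log2 -0.67, adjusted p = 0.0192, and -0.91, adjusted p = 0.0231, edgeR), though the libraries of Ddit4 overlapped. Both missed the adjusted p in some alternatives, Fkbp5 with DESeq2 among them (adjusted p = 0.0589), and Dusp1 missed it in 1 fit of all 16 libraries (adjusted p = 0.0591). The receptor did not pass the test (log2 -0.10, SE 0.13, adjusted p = 0.649, edgeR), nor did Cebpd (log2 -0.25, SE 0.14, adjusted p = 0.190). Klf9 (8.14 ± 4.95 CPM in host and 9.65 ± 4.36 CPM in engrafted controls) and Zbtb16 were below the filter, and two-sided exact permutation tests of their levels gave p = 0.686 and p = 0.543, where 4 libraries against 4 can reach 0.0286.

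After LPS none of the 9 genes was called between the populations, beside 6.73% of the 7843 genes tested that were called higher and 4.34% that were called lower in engrafted cells (edgeR). DESeq2 called none either, and 5 of the 9 genes had an unadjusted p below 0.05 in edgeR. At the adjusted p alone, 2 were higher and 2 lower in engrafted cells, beside 9.52% and 7.62% of all genes tested. Tsc22d3 and Dusp1 were again higher (log2 0.98, SE 0.21, adjusted p = 0.00251, and 0.83, SE 0.21, adjusted p = 0.00906, edgeR). Sgk1 was again lower (log2 -0.78, SE 0.21, adjusted p = 0.0162), and Nr3c1 was now lower too (log2 -0.70, SE 0.19, adjusted p = 0.0160). With 1 library left out, these missed the adjusted p in 4 and in 1 of 8 fits. Cebpd was at -0.67 (SE 0.24, adjusted p = 0.0658, edgeR), and at -0.99 (adjusted p = 0.000229) without the engrafted library of mouse 4. The strongly induced genes did not pass the test: Fkbp5 was at -0.15 (SE 0.19), Klf9 at 0.21 (SE 0.17), Ddit4 at 0.10 (SE 0.30) and Zbtb16 at 0.22 (SE 0.35) on the log2 scale, with adjusted p of 0.672, 0.481, 0.882 and 0.743. For Ddit4 even the sign depended on the scaling, as library totals gave -0.083. A p that misses the threshold does not show that these levels were alike.

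**Figure D3:**
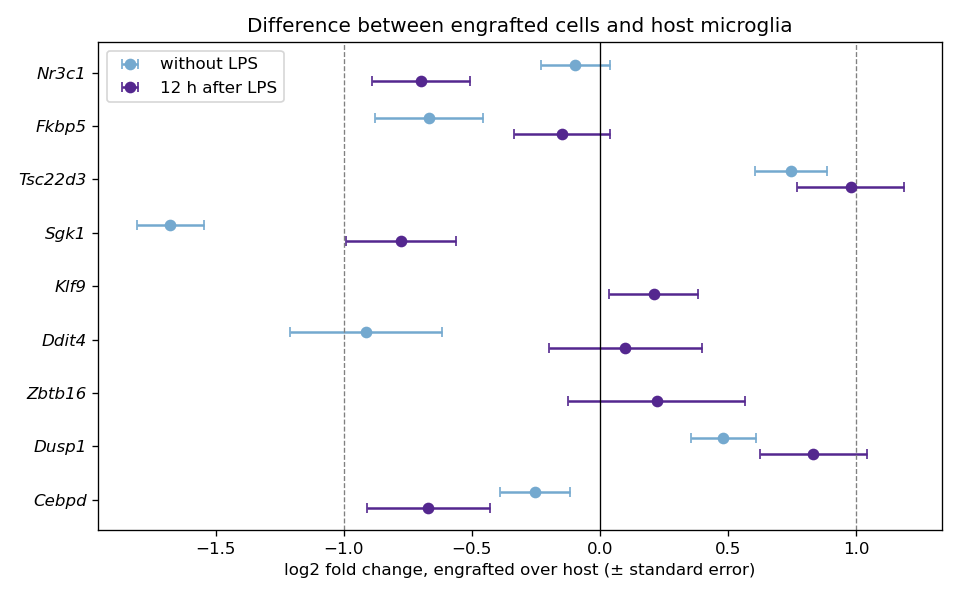
Log2 fold change of each gene between engrafted cells and host microglia (horizontal axis, edgeR, error bars are 1 standard error) without LPS (light blue) and 12 h after LPS (purple); dashed lines mark 2-fold. Sgk1 moves from -1.68 to -0.78, Tsc22d3 and Dusp1 are above 0 in both, and Klf9 and Zbtb16 have a value after LPS alone because they were too low to test without it.

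Genes that serve the receptor were represented by a list of 19 receptor, ligand supply and chaperone genes, of which 14 were tested. At the adjusted p, 5 of these fell and 2 rose after LPS in engrafted cells, beside 19.3% and 19.4% of all genes tested. The 2 that rose were the co-chaperone genes Bag1 (log2 0.97, adjusted p = 0.000323, edgeR) and Ppp5c (0.49, adjusted p = 0.0320, edgeR), named after their values were seen. None was called after LPS in host microglia by edgeR or by DESeq2 (8 had an unadjusted p below 0.05 in edgeR), and 3 were called lower in engrafted cells, where 11.3% of all genes tested were called lower. These were Dnaja1 (log2 -1.87, SE 0.22, adjusted p = 1.31e-06), Hsp90aa1 (-1.35, SE 0.24, adjusted p = 0.000173) and Hspa8 (-1.03, SE 0.17, adjusted p = 6e-05), by edgeR, an Hsp40 co-chaperone, the inducible Hsp90 and the constitutive Hsc70. Hspa8 fell just short of 2-fold without a filter (-0.99) and without the engrafted library of LPS mouse 1 or of mouse 2 (-0.98 and -0.97). Hsp90aa1 went from 60.5 ± 9.53 to 23.3 ± 3.39 CPM in engrafted cells and from 29.1 ± 4.60 to 30.7 ± 14.2 CPM in host microglia (SD, n = 4). The changes of 3 genes of this list were called different between the populations, where 2.5% of the 8847 genes tested were called lower in the interaction. They were Hsp90aa1 (-1.46, SE 0.37, adjusted p = 0.0163), Hsp90ab1 (-1.17, SE 0.22, adjusted p = 0.00126) and Dnaja1 (-1.16, SE 0.33, adjusted p = 0.0337), by edgeR. With 1 library left out, the difference of Dnaja1 missed the adjusted p in 10 of 16 fits (up to 0.0958) and that of Hsp90aa1 in 1, without the host library of LPS mouse 1 (adjusted p = 0.0620). Of these 3, Hsp90aa1 was called between the unchallenged populations, with more in engrafted cells (log2 1.07, SE 0.20, adjusted p = 0.000203), though with library totals, or without the engrafted control of mouse 7 or the host control of mouse 8, it was below 2-fold (0.99, 0.97 and 0.98). Median log2 fold changes of the list were 0.11 in host microglia and -0.40 in engrafted cells. Of 18 coregulators, 17 were tested in host microglia and 13 in engrafted cells. Ncoa3, a coactivator of nuclear receptors, was called lower in host microglia (-1.01, SE 0.22, adjusted p = 0.00097, edgeR), where 10.4% of all genes tested were called lower. It was below 2-fold with DESeq2, without a filter (-0.99), and without the host library of LPS mouse 1 (-0.90) or of mouse 2 (-0.79) or the host control of mouse 5 (-0.97). None was called in engrafted cells by edgeR or DESeq2, where 7 had an unadjusted p below 0.05 in edgeR and 11.3% of all genes tested were called lower. Ncoa1, another coactivator, was after LPS called higher in the engrafted population than in the host one (1.04, SE 0.25, adjusted p = 0.00676, edgeR), but not with library totals (0.90) or without the engrafted library of LPS mouse 1 (0.92) or of mouse 3 (just under 2-fold) or the host library of LPS mouse 2 (0.89). Without LPS, Ncoa1 was already higher in engrafted cells by less than 2-fold (0.71, SE 0.19, adjusted p = 0.00624, edgeR). Its difference in response did not pass the test (0.34, SE 0.32, adjusted p = 0.610, edgeR interaction).

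Other genes known to be induced by glucocorticoids were represented by a list of 32. In host microglia 22 of these were tested, 10 were called higher and 1 lower, beside 7.66% and 10.4% of all genes tested. In engrafted cells 25 were tested, 11 were called higher and 3 lower, beside 10.2% and 11.3%. Of those called higher, 4 in host microglia and 5 in engrafted cells were too low for the test between unchallenged populations and entered through their LPS libraries, so that these counts are a description. They were Il1r2, Hif3a, Nfil3 and Pik3ip1 in both and Cd163 in engrafted cells, with Pik3ip1 named after its values were seen. The medians of the list were 0.85 and 0.97 on the log2 scale, beside 0.01 and -0.01 for all genes tested. In both populations the 4 with the largest changes were Il1r2, Mt2, Hif3a and Nfil3. Il1r2, the decoy receptor for interleukin-1, was at 2.84 ± 1.98 CPM in host controls and 275 ± 157 CPM in host LPS libraries, and at 2.40 ± 3.09 and 141 ± 10.6 CPM in engrafted cells (SD, n = 4). Its pooled ratio was 94.4 (95% exact counting interval 52.5 to 189.9) in host microglia and 63.6 (29.0 to 174) in engrafted cells. Mt2, a metal-binding metallothionein, went from 52.3 ± 3.20 to 1221 ± 595 CPM in host microglia and from 31.6 ± 4.48 to 2940.0 ± 960.4 CPM in engrafted cells. Its rises, 4.54 (SE 0.29) and 6.53 (SE 0.28) on the log2 scale, differed by 1.99 (SE 0.40, adjusted p = 0.00249, edgeR interaction). Nfil3, a transcriptional repressor, went from 4.94 ± 4.50 to 96.4 ± 24.98 CPM in host microglia and from 8.18 ± 4.75 to 152 ± 45.5 CPM in engrafted cells (SD, n = 4). Hif3a, a hypoxia-inducible factor subunit, was near the limit of detection in controls (3 reads in all host and 2 in all engrafted controls) and had 131 and 70 reads after LPS, a pooled ratio of 50.4 (16.9 to 247) and 33.0 (8.80 to 278).

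**Figure D4:**
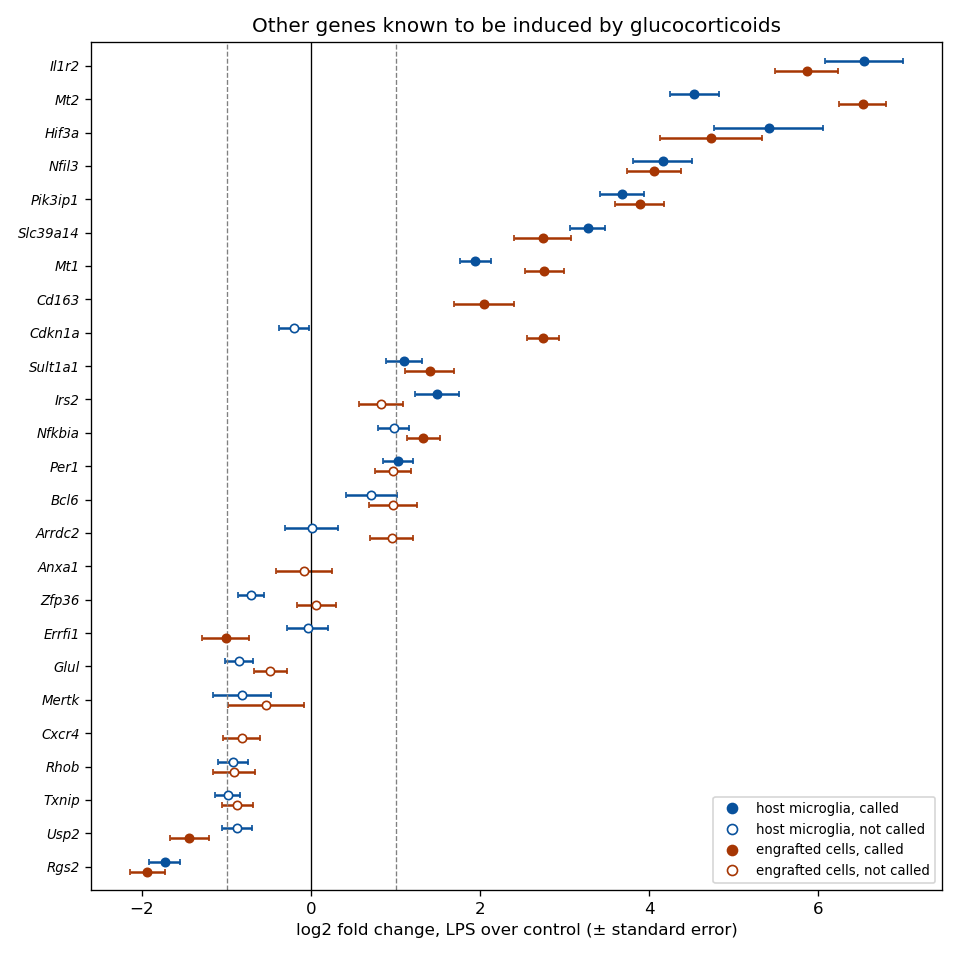
Log2 fold change between LPS and control libraries (horizontal axis, edgeR, error bars are 1 standard error) of the 25 genes of the induced list that were tested in at least 1 population, in host microglia (blue) and engrafted cells (brown); filled points were called and dashed lines mark 2-fold. The genes run from Il1r2 at 6.55 and 5.87 to a group below 0, and Mt2 and Cdkn1a are the 2 whose responses were called different between the populations.

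Cdkn1a, a cell cycle inhibitor that glucocorticoids and p53 both raise, was the other gene of that list with a called difference in response. It measured 1636 ± 401 CPM in host controls and 1434 ± 262 CPM in host LPS libraries (log2 -0.20, SE 0.18, adjusted p = 0.389, edgeR). In engrafted cells it went from 148 ± 19.0 to 1004 ± 118 CPM (SD, n = 4; log2 2.75, SE 0.19, adjusted p = 9.26e-10), and the responses differed by 2.94 (SE 0.26, adjusted p = 1.81e-08, edgeR interaction). As for Sgk1, the engrafted controls were the low group, 10.9-fold below host controls (log2 -3.44, SE 0.16, adjusted p = 8.75e-15, edgeR). Anxa1 (annexin A1, an anti-inflammatory phospholipid-binding protein) and Cxcr4 (a chemokine receptor) were hardly read in host microglia and entered the tests between the populations through the engrafted libraries. Anxa1 had 7 reads in all host controls and 5 in all host LPS libraries, against 104 and 101 in engrafted cells, and Cxcr4 had 9 and 7 against 266 and 151. Cd163, the haemoglobin scavenger receptor, likewise had 5 and 4 reads in host microglia against 27 and 123 in engrafted cells. Arrdc2, an arrestin domain protein, was called higher after LPS in the engrafted population than in the host one (log2 1.93, SE 0.32, adjusted p = 0.000225, edgeR). Without LPS, Arrdc2 was already higher in engrafted cells, just short of 2-fold (log2 0.98, SE 0.25, adjusted p = 0.00429, edgeR). Its difference in response did not pass the test (0.94, SE 0.43, adjusted p = 0.221, edgeR interaction).

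Of a list of 12 inflammatory genes that glucocorticoids are known to repress, 9 were tested in host microglia and 7 of these were called higher after LPS, beside 7.66% of all genes tested. In engrafted cells 7 were tested and 6 of these were called higher, beside 10.2%. Of the 7 in host microglia, Il12b and Il6 (the latter named after its values were seen) were too low for the test between unchallenged populations and entered through their LPS libraries, Il12b with 15 reads in all host controls and 140 in all host LPS libraries. None was called lower after LPS in either population. Il1b (interleukin-1 beta) rose by 3.20 (SE 0.29, adjusted p = 1.79e-08) in host microglia and by 2.82 (SE 0.24, adjusted p = 1.56e-08) in engrafted cells, and Tnf by 1.66 (SE 0.20, adjusted p = 6.14e-07) and 1.51 (SE 0.24, adjusted p = 4.87e-05), on the log2 scale by edgeR. Cxcl10, a chemokine induced by interferon, was called higher in both populations, though its LPS and control libraries overlapped in both. It ran from 99.9 to 241.5 CPM in host controls and from 168 to 1330 CPM in host LPS libraries. In engrafted cells it ran from 68.6 to 155.9 CPM without and from 148.8 to 912.8 CPM with LPS. Its change in host microglia went from 2.00 to 1.24 without the host LPS library of mouse 2. Ccl4, a chemokine, rose by 1.21 (SE 0.25) in host microglia and by 1.33 (SE 0.26) in engrafted cells and was called in both. Between the populations after LPS, 9 were tested, 1 was called higher and 4 lower in engrafted cells, beside 6.73% and 4.34% of all genes tested. Tnf (-1.72, adjusted p = 0.000163), Ccl4 (-1.38, adjusted p = 0.00968) and Il12b (-1.73, adjusted p = 0.0189) were among the lower ones and Il1b (1.02, adjusted p = 0.0255) was the higher one, by edgeR. The libraries of both populations overlapped for Ccl4, Il12b and Il1b. Il12b had 140 reads in all host LPS and 34 in all engrafted LPS libraries. It entered this comparison through the host libraries, so its p and the count of lower genes are a description. With 1 library left out, Il12b lost its call in 2 and Il1b in 5 of 8 fits. Without LPS, 7 were tested, Il1b was called higher (1.40) and Tnf and Ccl4 were called lower (-1.55 and -1.50) in engrafted cells, beside 6.25% and 4.73%. The interaction passed the adjusted p for none of the 9 genes of this list tested by edgeR, of which 2 had an unadjusted p below 0.05, and for 1 by DESeq2.

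Both libraries of a mouse could be compared because graft and host shared an animal. For each gene and mouse it was asked whether both libraries deviated to the same side of their group means of log2(CPM + 1). This was so in 7 of 8 mice for Nr3c1, Tsc22d3 and Dusp1, in 6 for Klf9 and Ddit4, in 5 for Fkbp5 and Cebpd and in 3 for Sgk1 and Zbtb16. Summed over the 9 genes it was 49 of 72 cases, beside 51.6% over the 8847 genes kept for all 16 libraries. The genes are not independent of each other, and the figure is a description.

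The genes whose levels followed 3 of the members most closely over the 16 libraries were sought among the 3794 genes whose mean level was 50 CPM or more. For Fkbp5 they were Rnf169 (Pearson r = 0.989), Cd300lf (0.986) and Ms4a6d (0.985). Rnf169 went from 89.5 ± 12.97 to 810.4 ± 106 CPM in host microglia and from 69.3 ± 11.7 to 840.3 ± 148 CPM in engrafted cells (SD, n = 4). For Tsc22d3 they were Dusp1 (0.972), 1110008P14Rik (0.949) and Spp1 (0.949), of which Dusp1 is itself one of the 9 genes. For Nr3c1 they were Zc3h11a (0.910), Tmem135 (0.902) and Ly86 (0.899). These correlations rest on 4 groups that differ in population and treatment and are given as a description.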

How the data were processed

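RNA was measured in 16 libraries, 4 for each of 4 groups given by the labels. The authors sorted cells, made libraries by a derivation of MARS-seq, mapped reads to NCBI37 (mm9) with HISAT (0.1.5 in the submitters' processing notes, which also name bcl2fastq and HOMER) and kept unique reads. They deposited raw counts of sense reads on the exons of 1 model per RefSeq gene. The paper names no removal of PCR duplicates, so intervals and floors cover counting error only. Between 64.0 and 76.5% of tags fell on genes.

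Counts were tested in R 4.3.3 with edgeR 4.0.16 (filterByExpr with minimum count 10 and total 15, TMM, quasi-likelihood test, Benjamini-Hochberg over all genes tested). Each comparison used its own 8 libraries, and the interaction all 16. A gene was called above an absolute log2 fold change of 1 with an adjusted p below 0.05. Standard errors are the fold change over the root of F. CPM used TMM sizes over the 16 libraries. Exact tests and counting intervals were computed with scipy 1.17.1. The alternatives were RLE, library totals, DESeq2 1.42.0, no filter, 10 reads in every library, 1 fit of all 16 libraries, the mouse as a block, and leaving out each library. The labels number the mice and name no litter or cage.

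Same-numbered libraries come from 1 mouse. After removal of group means, Pearson's r between both libraries of mice 1 to 8 was 0.123, 0.0143, 0.194, 0.114, 0.0184, -0.0335, 0.0517 and 0.0770. For comparison, the mean r with other mice of the same treatment ran from -0.0654 (mouse 4) to 0.0110 (mouse 6). On simulated counts with 200 changed genes, the test was checked before use.

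The 9 genes and all lists were chosen with earlier results of these data known. By rule, the genes named besides the 9 are, per list and comparison, the 4 called with the largest absolute log2 fold change, and the 3 most correlated with Fkbp5, Tsc22d3 and Nr3c1. A few others are named as chosen after their values were seen. Motifs were sought on both strands as exact letters, and the DNA shown was read from the mm9 assembly. No promoter sequence of the receptor is printed.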

Additional observations from a re-analysis of the deposited data

Results flagged for a closer look

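In 4 of the 36 groups of 4 libraries formed by the 9 genes and 4 groups, 1 library stood apart by Dixon's criterion, which flags about 1 group in 20 by chance. Dusp1 was at 4474 CPM in the engrafted library of LPS mouse 4, with the others at 2502 to 2809 CPM. Cebpd was at 633 CPM in the same library, with the others at 292 to 323 CPM. Sgk1 was at 555 CPM in the engrafted control of mouse 7, with the others at 389.6 to 401 CPM. Zbtb16 was at 2.95 CPM (2 reads) in the host control of mouse 5, with no read in the others. Because those others are tied, any read would have been flagged, and the rate of 1 in 20 does not hold for this group. The response of Sgk1 to LPS differed between engrafted cells and host microglia by a log2 fold change of 0.90 (adjusted p = 0.0377, edgeR interaction).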

How the results depend on the processing

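With a minimum of 10 reads in each library, 3 of the 9 genes were called after LPS in host microglia and 2 in engrafted cells in place of 5 and 5, because Klf9 and Zbtb16 and, in engrafted cells, the borderline Dusp1 dropped out. Without a filter, 1 gene (Ddit4) was called in the interaction. With 1 library left out, between 5 and 5 genes were called after LPS in host microglia, 4 and 7 in engrafted cells, 1 and 2 between the populations without LPS, 0 and 1 after LPS, and 0 and 1 in the interaction. The mouse as a replicate block changed no call of the 9 genes. Signs turned for 5 values, none of them called. Sgk1 after LPS in host microglia was -0.015 with 10 reads in every library and -0.11 to 0.11 with 1 library left out. Ddit4 between the populations after LPS was -0.083 with library totals, -0.024 with the replicate block and -0.33 to 0.31 with 1 library left out. Zbtb16 in that comparison was -0.041 to 0.46, Klf9 in the interaction was -0.41 to 0.22, and Hsp90aa1 after LPS in host microglia was -0.22 to 0.27 with 1 library left out. Dusp1 after LPS in engrafted cells fell below 2-fold with library totals (0.91), with 10 reads in every library (0.89) and, narrowly, in 1 fit of all 16 libraries, and was 0.79 to 1.10 with 1 library left out. Tsc22d3 or Sgk1 passed 2-fold in engrafted cells, Tsc22d3 after LPS and Ddit4 without LPS passed it between the populations, and Sgk1 passed it in the interaction, in some of the fits with 1 library left out. The difference in Sgk1 response missed the adjusted p in 10 of 16 such fits, and 7 of the 26 results of the 9 genes past the adjusted p missed it in at least 1 alternative. Of the other genes named, Ncoa3, Ncoa1, Hspa8, Hsp90aa1, Dnaja1, Il1b and Il12b lost a call in at least 1 alternative. The cause of these moves was not tested. Over all genes, the counts called in host microglia and engrafted cells after LPS, between the populations without and after LPS and in the interaction went from 1484, 1636, 883, 868 and 438 to 871, 816, 402, 381 and 251 with 10 reads in every library, and those between the populations to 1454 and 1352 without a filter. Library totals moved the median of all genes after LPS from -0.01 to -0.16 between the populations. Levels under 8.76 CPM, or 3 reads, cannot be told from 0 in the shallowest library.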
